A study of Mus musculus with 6 samples.

Results

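The aryl hydrocarbon receptor and the genes around it that handle polycyclic carcinogens were followed in 6 mouse skin tumours. The set holds 9 genes, namely Ahr, Ahrr, Arnt, Cyp1a1, Cyp1a2, Cyp1b1, Tiparp, Ephx1 and Por. They were listed by name, with earlier results of these data known. The array carries 13 probes for them among 56605 probes that are not controls. RNA came from tumours of male mice, 3 that bear the label P2ry6+/+ (wild-type) and 3 that bear P2ry6-/- (a knockout of a receptor for uridine diphosphate); the labels name no other allele and give no strain or age. All 6 tumours share the same induction: the mutagen 7,12-dimethylbenz[a]anthracene (DMBA, 195 nmol on shaved back skin), then the tumour promoter TPA (16 nmol, 2 times a week) until week 22, in 12 mice of each genotype. The labels do not say whether the 3 tumours of a genotype came from separate mice, so p-values measure only the spread between these samples.

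The aryl hydrocarbon receptor (AHR) is a transcription factor that waits in the cytoplasm with chaperones, binds planar aromatic compounds, enters the nucleus and pairs there with its partner ARNT on a short DNA element. Its best known targets are the cytochromes P450 of family 1, which oxidise polycyclic hydrocarbons, and genes that damp the pathway again, such as Ahrr and Tiparp. DMBA is a classic substrate: in mouse skin it is turned into its DNA-binding form through P450 enzymes, above all Cyp1b1, together with the epoxide hydrolase Ephx1, while Por hands electrons to all microsomal P450 enzymes. The arrays read the grown tumours, long after the single dose of DMBA.

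Levels are log2 of the spot signal relative to the 75th percentile of the same array, so a level of 0 lies at that percentile and a difference of 1 is a 2-fold difference. Between 54.2% and 59.4% of the spots that are not controls were well above background on each array, and the 75th percentile of the probe signal was 277.1 to 367.9 units. P2ry6 was not lower in the tumours labelled P2ry6-/-: its 2 probes differed by 0.41 and 0.54 towards higher values there (limma adjusted p = 0.466 and adjusted p = 0.411). The deleted stretch of the gene is not named in the labels, so these probes do not check the genotype, and every direction below follows the labels. All 7 markers of basal keratinocytes were well above background on all 6 arrays, with a mean level of the list of 6.24 to 6.95. Whole tumours were measured, so fewer cells of a type and less RNA per cell cannot be told apart.

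On all 6 arrays 7 of the 13 probes gave a signal well above background, 3 did so on some arrays and 3 on none. A probe was tested when it was well above background in all 3 tumours of at least 1 genotype, which 8 member probes were; they stand for 6 genes (Ahr, Arnt, Cyp1b1, Tiparp, Ephx1 and Por). Ahrr, Cyp1a1 and Cyp1a2 had no tested probe with this filter and all 6 tumours, and their values in that setting are given without a test. None of the 8 (0) passed the limma adjusted threshold of 0.05, where 0.145% of the 29720 tested probes did (0.0572% higher and 0.0875% lower in the tumours labelled P2ry6-/-). At an unadjusted p under 0.05 there were 2 of 8, Cyp1b1 and Tiparp, beside 12.7% of all tested probes, and 1 of 8, Cyp1b1, also differed at least 2-fold, beside 3.96%. Without wild-type tumour 1 or without knockout tumour 3 the count at an unadjusted p under 0.05 was 0, and without wild-type tumour 2, knockout tumour 1 or knockout tumour 2 it was 1. Without wild-type tumour 3 Tiparp was no longer among them, and the Cyp1a1 probe was. That probe then passed the filter only through wild-type tumours 1 and 2, where it was higher, with all knockout values below background. Its place in the count therefore follows in part from the filter. The share of all probes at that threshold was not counted in these fits.

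**Figure D1:**
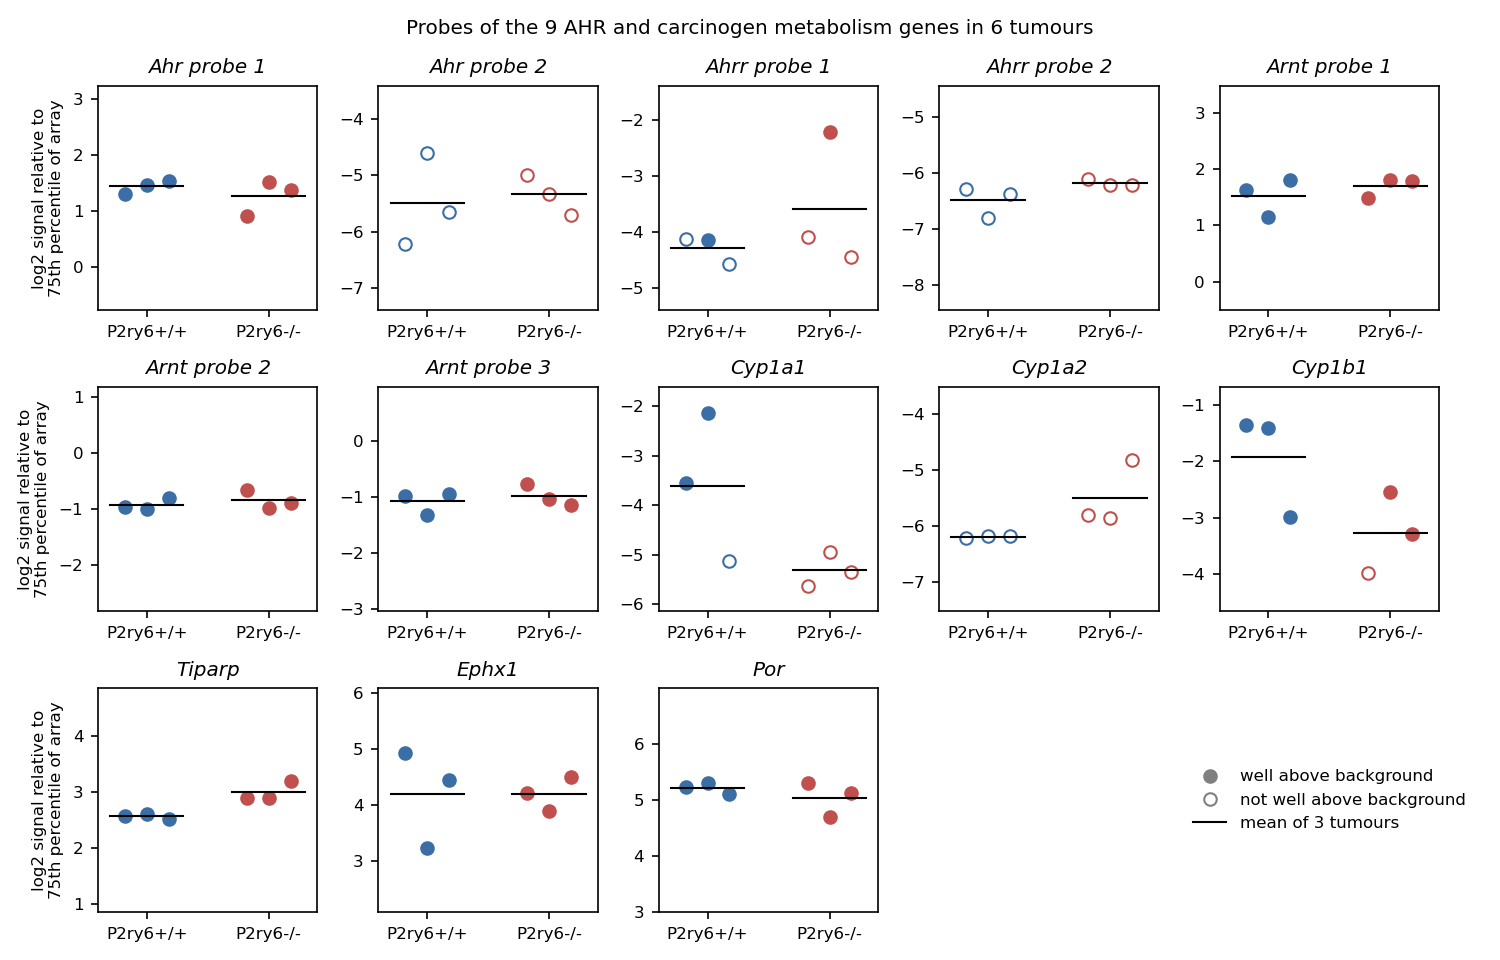
Each panel shows the log2 signal of 1 probe relative to the 75th percentile of its array in 3 tumours labelled P2ry6+/+ (blue) and 3 labelled P2ry6-/- (red), in replicate order; filled points were well above background and bars are means of 3. Tiparp is the tested probe whose genotypes do not overlap; Cyp1a1 is above background in 2 tumours, both labelled P2ry6+/+.

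Ahr itself was well above background in every tumour, and its genotype means were close. Its main probe (chromosome 12 from 36182724 to 36182783, mouse build mm9, minus strand) read 1.30, 1.46 and 1.54 in labelled wild-type tumours 1, 2 and 3, and 0.91, 1.51 and 1.37 in labelled knockout tumours 1, 2 and 3. Knockout tumour 1 was the lowest of the 6 and the other 5 lay within a narrow band, so the genotypes overlapped. The difference, labelled knockout minus labelled wild-type, was -0.17 (SE 0.20, 95% interval -0.64 to 0.30; limma adjusted p = 0.765). The second Ahr probe, from 36199083 to 36199142, which the array assigns to an Ensembl transcript model only, was not well above background on any array.

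Arnt, the partner that AHR needs on DNA and that also pairs with the hypoxia factors, was read by 3 probes on chromosome 3 that were all well above background on all 6 arrays. The first (from 95301081 to 95301140) read 1.63, 1.16 and 1.81 in labelled wild-type tumours 1, 2 and 3, and 1.50, 1.81 and 1.79 in labelled knockout tumours 1, 2 and 3. Wild-type tumour 2 was the low one, and the remaining values of the genotypes overlapped. The 3 probes differed by 0.17 (95% interval -0.34 to 0.68), 0.08 (-0.30 to 0.46) and 0.09 (-0.34 to 0.53), with limma adjusted p = 0.784, adjusted p = 0.877 and adjusted p = 0.868. These intervals reach 0.68 for Arnt and -0.64 for Ahr, so the values do not show that the levels of the receptor complex were equal.

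The genes that AHR switches on as its own brakes were Ahrr, a repressor that competes for ARNT, and Tiparp, an ADP-ribosyltransferase that modifies AHR and limits its activity. Tiparp read 2.57, 2.61 and 2.51 in labelled wild-type tumours 1, 2 and 3 and 2.88, 2.90 and 3.19 in labelled knockout tumours 1, 2 and 3 (probe on chromosome 3 from 65358749 to 65358808, mm9). Every labelled knockout tumour was above every labelled wild-type tumour. Genotypes that did not overlap, in either direction, were seen at 18.9% of all tested probes and at 1 of the 8 member probes. The difference was 0.43 (SE 0.16, 95% interval 0.06 to 0.80), a 1.35-fold higher mean that did not pass the threshold (limma adjusted p = 0.344, unadjusted p = 0.030; two-sided exact permutation p = 0.1, the smallest that 3 against 3 allows). A larger difference in either direction was seen at 22.6% of the tested probes. Markers of differentiated keratinocytes were also higher in all 3 labelled knockout tumours: 7 of 7 genes had the higher mean, and the mean level of the list was 5.83 to 6.37 there against 4.76 to 5.61 in the labelled wild-type tumours. The T cell list and the Langerhans and dendritic cell list, given below, were also higher in all 3 labelled knockout tumours. The part of these shifts in the Tiparp values was not tested.

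Ahrr was near the limit of the array. Its brighter probe (chromosome 13 from 74348566 to 74348612, mm9) was well above background in 2 tumours, wild-type tumour 2 and knockout tumour 2. It read -4.12, -4.14 and -4.57 in labelled wild-type tumours 1, 2 and 3, and -4.09, -2.22 and -4.44 in labelled knockout tumours 1, 2 and 3. Knockout tumour 2 stood alone, with a signal of 64.1 units where the other 5 gave 12.7 to 20.9 units, and the genotypes overlapped. The other Ahrr probe was not well above background on any array.

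To place these target genes beside their regulatory DNA, the 250 bases before the transcription start were searched for the core of the AHR element, GCGTG on either strand; no other motif was searched. RefSeq's promoter table (GRCm38.p6) held 8 of the 9 genes, all but Ahr, and 6 of those 8 windows held the core, against 28.16% of all 32851 windows of this length in the table. Ahrr and Por held it 3 times, Arnt, Cyp1a1, Cyp1b1 and Tiparp 1 time each, and Cyp1a2 and Ephx1 did not hold it in this window. A match is a string of 5 letters and not a measured binding site. The set was listed with known AHR targets in it, and its 8 windows held 47.2% to 75.2% G and C. All windows were matched for neither, so the shares are no test of enrichment. The windows of the 4 target genes whose values are described here are shown 5′ to 3′ on the gene's strand, with the core in capitals.
Ahrr (chr13:74292332-74292581, minus strand): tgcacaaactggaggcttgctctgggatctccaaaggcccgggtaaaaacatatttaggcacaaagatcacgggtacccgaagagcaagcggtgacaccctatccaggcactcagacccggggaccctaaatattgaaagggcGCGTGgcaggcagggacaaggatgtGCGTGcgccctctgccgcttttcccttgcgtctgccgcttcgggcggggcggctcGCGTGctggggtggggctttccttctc
Tiparp (chr3:65528197-65528446, plus strand): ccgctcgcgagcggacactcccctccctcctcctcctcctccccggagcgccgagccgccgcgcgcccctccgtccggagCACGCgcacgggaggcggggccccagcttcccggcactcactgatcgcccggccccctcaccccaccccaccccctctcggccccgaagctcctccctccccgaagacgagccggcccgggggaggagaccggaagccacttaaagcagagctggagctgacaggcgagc
Cyp1b1 (chr17:79715062-79715311, minus strand): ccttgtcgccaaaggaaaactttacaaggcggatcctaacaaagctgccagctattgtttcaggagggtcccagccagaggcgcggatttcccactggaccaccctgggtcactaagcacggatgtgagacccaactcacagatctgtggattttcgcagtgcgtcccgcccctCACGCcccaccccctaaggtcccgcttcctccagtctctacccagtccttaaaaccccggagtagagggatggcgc
Cyp1a1 (chr9:57697363-57697612, plus strand): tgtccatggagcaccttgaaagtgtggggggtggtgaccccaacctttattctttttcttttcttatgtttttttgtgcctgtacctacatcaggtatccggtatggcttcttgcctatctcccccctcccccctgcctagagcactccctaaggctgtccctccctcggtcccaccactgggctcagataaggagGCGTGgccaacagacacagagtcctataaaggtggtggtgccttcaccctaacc

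Cyp1b1, the P450 that mouse skin uses to activate DMBA and that stromal cells of many tissues carry, showed the widest genotype difference of the tested members. Its probe (chromosome 17 from 80106547 to 80106606, mm9) read -1.35, -1.40 and -3.00 in labelled wild-type tumours 1, 2 and 3. It read -4.00, -2.55 and -3.30 in labelled knockout tumours 1, 2 and 3, and in knockout tumour 1 it was not well above background. Wild-type tumours 1 and 2 were the highest of the 6, while wild-type tumour 3 lay inside the range of the labelled knockout tumours, so the genotypes overlapped. The means were -1.92 ± 0.94 (SD, n = 3) and -3.28 ± 0.72 (SD, n = 3), a 2.57-fold lower mean under the knockout label and a difference of -1.36 (SE 0.53, 95% interval -2.63 to -0.10). The probe entered the test through the 3 labelled wild-type arrays, where it was higher, and 2 of 3 labelled knockout arrays measured it, so the fold and the interval rest in part on a value below background. The difference did not pass the threshold (limma adjusted p = 0.367, unadjusted p = 0.038; two-sided exact permutation p = 0.2), and 2.83% of the tested probes differed by more in either direction. With normexp background correction, which compresses dim probes, the difference was -0.55 (adjusted p = 0.382). Without wild-type tumour 3 it was -1.90 (adjusted p = 0.220), and without knockout tumour 1 it was -1.00 (adjusted p = 0.509).

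Cyp1a1, the P450 most used as a gauge of AHR activity, was measured in 2 tumours only, both labelled wild-type. Its probe (chromosome 9 from 57551535 to 57551594, mm9) read -3.55, -2.14 and -5.12 in labelled wild-type tumours 1, 2 and 3, of which the third was not well above background. The labelled knockout tumours 1, 2 and 3 read -5.62, -4.94 and -5.34, all not well above background. In units of signal, wild-type tumour 2 gave 83.5, wild-type tumour 1 gave 29.0, and the other 4 tumours gave 6.06 to 9.74. The labelled wild-type mean of -3.60 ± 1.49 (SD, n = 3) includes wild-type tumour 3, which read lower than knockout tumour 2. With values below background in both genotypes, no fold or difference with all 6 tumours is given for this probe, and no test with the filter.

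Cyp1a2, the neighbour of Cyp1a1 on chromosome 9 and mainly an enzyme of the liver, was not well above background on any array (probe from 57528060 to 57528119, mm9). Its 6 readings lay between 4.40 and 9.74 units, and no level or direction is given for it.

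Several cell types that a skin sample can hold differed in the same tumours. Markers here and above were taken at the brightest probe of each gene. All 8 skeletal muscle, all 7 sebaceous gland and all 6 pericyte and smooth muscle markers had lower means in the tumours labelled P2ry6-/-. So did 7 of 8 adipocyte and 6 of 7 hair follicle markers. Over all tested probes, 12 of 14 muscle, 13 of 13 sebaceous and 9 of 10 pericyte and smooth muscle probes were lower. For the adipocyte and hair lists these were 8 of 9 and 6 of 8. The pericyte and smooth muscle list overlapped between genotypes, at 0.84 to 1.45 in labelled wild-type and 0.22 to 0.87 in labelled knockout tumours. The mean level of the sebaceous list was 2.21, 5.05 and 1.75 in labelled wild-type tumours 1, 2 and 3 and 0.12 to 0.81 in the labelled knockout tumours, and that of the adipocyte list was 0.43 to 1.59 against -2.61 to -2.45. In the labelled knockout tumours 4 adipocyte markers (Adipoq, Car3, Cfd and Plin1) and 5 muscle markers (Ckm, Myh4, Myh8, Myl1 and Tnnc2) gave no signal well above background. The hair follicle list read 2.03, 3.58 and -0.34 in labelled wild-type tumours 1, 2 and 3 and -2.80, 0.06 and -2.33 in labelled knockout tumours 1, 2 and 3. Cyp1b1 ran in the same order of tumours apart from its 2 highest, and Cyp1a1 was above background in the 2 tumours with the highest hair and sebaceous lists. Fibroblast markers, in contrast, had the higher mean in the labelled knockout tumours for 7 of 8 genes, with the list at 3.73 to 4.78 against 2.96 to 4.55. T cell markers did so for 5 of 5 genes, with the list at -1.55 to -1.20 against -1.85 to -1.61. Langerhans and dendritic cell markers did so for 4 of 5 genes, with the list at -1.61 to -1.05 against -1.92 to -1.66. In the T cell and the Langerhans list alike, 1 gene was not well above background on any array. The part of any of these cell types in the Cyp1b1 and Cyp1a1 values was not tested.

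**Figure D2:**
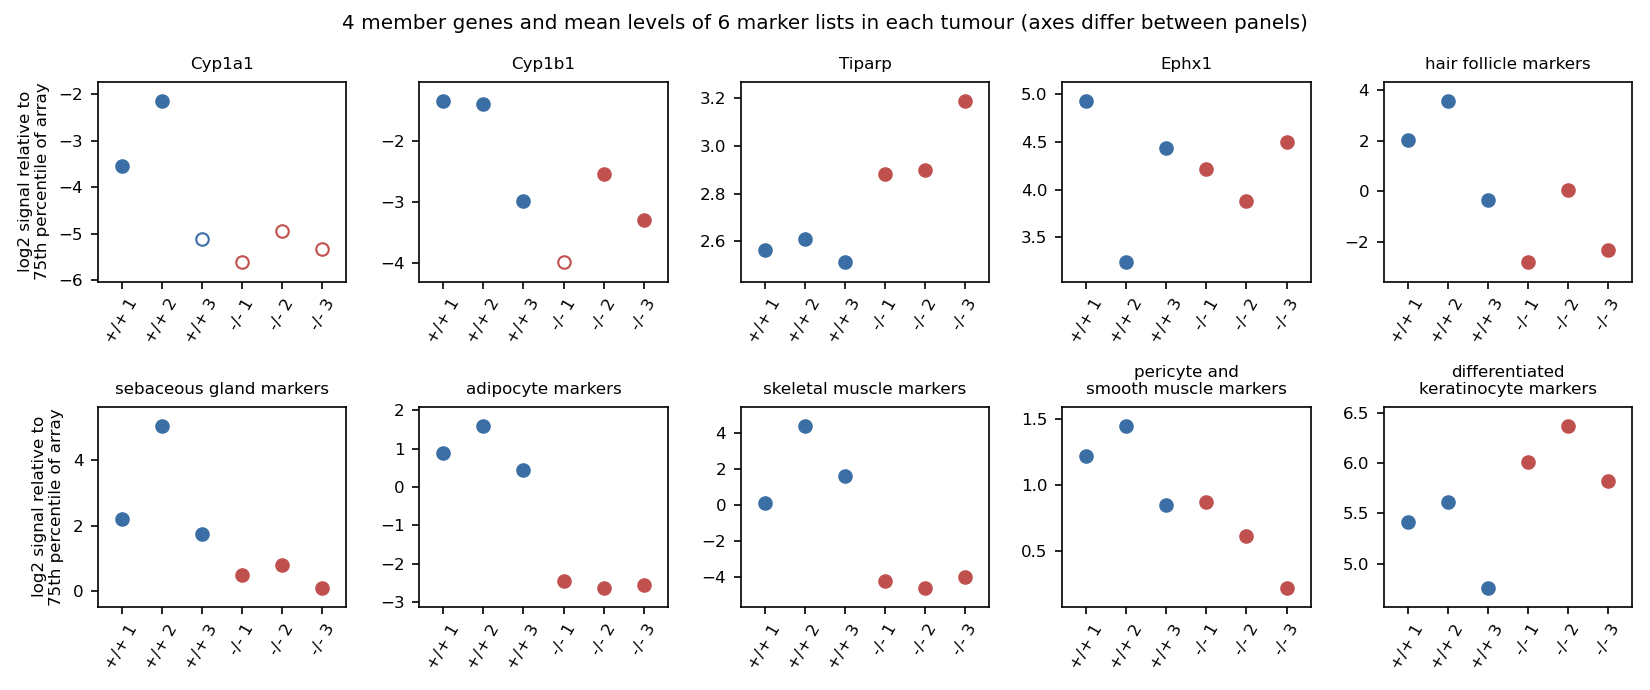
The first 4 panels show the log2 signal of Cyp1a1, Cyp1b1, Tiparp and Ephx1 relative to the 75th percentile of the array, and the other panels the mean level of 6 marker lists, for each tumour labelled P2ry6+/+ (blue) or P2ry6-/- (red); open points were not well above background, and axes differ between panels. Wild-type tumour 2 has the highest sebaceous (5.05), hair (3.58) and Cyp1a1 (-2.14) values and the lowest Ephx1 value (3.24).

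The enzymes that act beside the P450s were well above background in every tumour, and neither passed the test. Ephx1, which opens the epoxide that a P450 makes from DMBA to a dihydrodiol that P450s then oxidise again, read 4.93, 3.24 and 4.44 in labelled wild-type tumours 1, 2 and 3, and 4.21, 3.88 and 4.50 in labelled knockout tumours 1, 2 and 3 (probe on chromosome 1 from 182919689 to 182919748, mm9). Wild-type tumours held both the highest and the lowest value, and all 3 knockout values fell between them. The difference was -0.00 (-0.00399, SE 0.43, 95% interval -1.01 to 1.00; limma adjusted p = 0.998), an interval wide enough to hold a 2-fold difference in either direction. Wild-type tumour 2, the lowest in Ephx1, had the highest skeletal muscle list (4.41 against -4.58 to 1.62 in the other tumours). That tumour was also highest in the sebaceous, hair follicle, adipocyte, pericyte and smooth muscle, endothelium and mast cell lists. The labelled knockout tumours, with the lowest muscle lists (-4.58 to -4.00), were not the highest in Ephx1. The part of muscle or other cell types in the Ephx1 values was not tested.

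Por, the reductase that supplies electrons to the P450s, read 5.23, 5.30 and 5.11 in labelled wild-type tumours 1, 2 and 3 and 5.30, 4.70 and 5.12 in labelled knockout tumours 1, 2 and 3 (chromosome 5 from 136211116 to 136211175, mm9). Knockout tumour 2 was the lowest, and the other 5 lay close together. The difference was -0.17 (SE 0.20, 95% interval -0.64 to 0.29; limma adjusted p = 0.754), and it was -0.004 without knockout tumour 2.

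**Figure D3:**
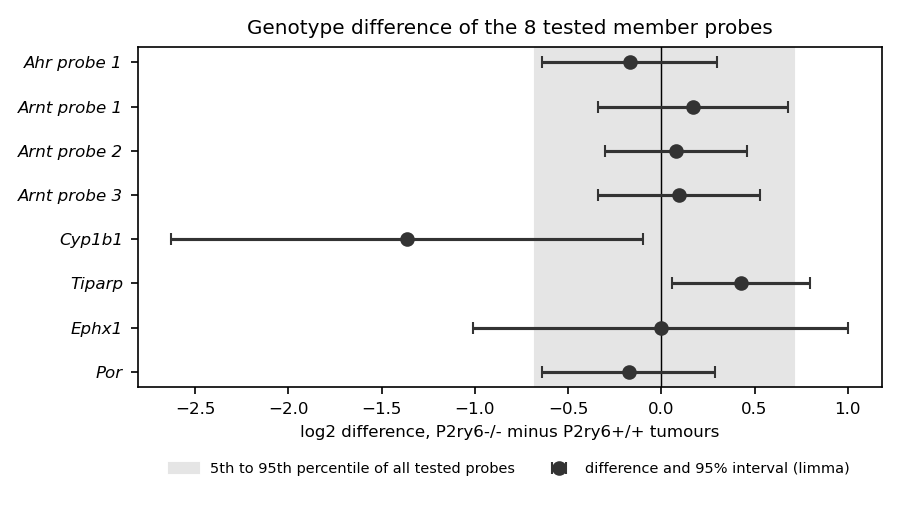
Points are the log2 differences, labelled P2ry6-/- minus labelled P2ry6+/+ tumours, of the 8 tested member probes with their 95% intervals from limma; the grey band runs from the 5th to the 95th percentile of all 29720 tested probes (-0.68 to 0.71). Cyp1b1 (-1.36, with 1 of 3 labelled knockout values below background) lies outside the band and Tiparp (0.43) inside it, and the intervals of the other 6 probes include 0.

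The genes around this pathway were described through 6 lists. None of their probes (0) passed the limma adjusted threshold with all 6 tumours. The counts below are at an unadjusted p under 0.05, where 12.7% of all tested probes stood (7.78% higher and 4.89% lower). The median difference of all tested probes was 0.02. Those shares are from the fit with all 6 tumours and were not counted for the other fits. Adjusted calls over all probes rose from 43 to 187 without wild-type tumour 2.

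Among other AHR target genes, 12 of 17 tested probes were higher under the knockout label, at a median difference of 0.16, and 2 of 17 were past the unadjusted threshold, in opposite directions. Without wild-type tumour 3 the median was 0.08. Without wild-type tumour 2 it was 0.04, with 9 of 17 higher and 6 of 17 past the unadjusted threshold. The share of all tested probes past that threshold was not counted in these fits. Xdh, the xanthine dehydrogenase gene, read 0.33, 0.52 and -0.03 in labelled wild-type tumours 1, 2 and 3 and 0.99, 1.26 and 1.29 in labelled knockout tumours 1, 2 and 3, a difference of 0.90 (SE 0.20, limma adjusted p = 0.188); another of its probes differed by 0.68. Aldh3a1, an aldehyde dehydrogenase that AHR induces together with Cyp1a1 in many cells, read 5.85, 3.31 and 3.18 in labelled wild-type tumours 1, 2 and 3 and 2.41, 1.87 and 2.24 in labelled knockout tumours 1, 2 and 3. Wild-type tumour 1 was the high one, and the difference was -1.94 (SE 0.68, adjusted p = 0.329). Ugt1a6b, a glucuronosyltransferase whose family shares its last exons, differed by 0.45 (adjusted p = 0.473). Known targets of the same receptor thus had means that differed in either direction, Tiparp and Xdh higher and Cyp1b1 and Aldh3a1 lower, and none passed the adjusted threshold.

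The enzymes and pumps that conjugate and export carcinogen metabolites leaned towards lower values in the labelled knockout tumours. Of 28 tested probes 22 were lower, where 47.1% of all tested probes were, with a median difference of -0.42; at the unadjusted threshold 4 were lower and 1 higher. The median was -0.25 without knockout tumour 3. Without wild-type tumour 2 it was -0.38, and 14 of 28 probes were past the unadjusted threshold. The share of all tested probes past it was not counted in that fit. In that fit 1 of the 28 passed the adjusted threshold, as did 187 of all 30029 tested probes. Without knockout tumour 2 or 3 there were 3 past the unadjusted threshold. The 2 probes of Mgst1, a microsomal glutathione transferase that is also on the sebaceous list, differed by -1.59 and -1.51 (limma adjusted p = 0.241 and adjusted p = 0.256). The brighter read 4.40, 5.90 and 4.42 in labelled wild-type tumours 1, 2 and 3 and 3.64, 3.37 and 2.93 in labelled knockout tumours 1, 2 and 3. Wild-type tumour 2 was highest in Mgst1 as in the sebaceous list, whose levels are given above. Gstp1, a glutathione transferase whose sequence is close to that of Gstp2, differed by -0.73 (adjusted p = 0.368), and Gstt1, named after its values were seen, by -2.39 (adjusted p = 0.389), with wild-type tumour 2 at 2.01 and the other 5 at -3.29 to -1.83. Abcg2, an efflux pump, was the 1 probe higher at that threshold, by 0.76 (SE 0.23, adjusted p = 0.281) and no overlap between genotypes.

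The chaperones and coactivators of the AHR complex had 17 of 23 tested probes higher, with a median of 0.14, which was 0.08 without wild-type tumour 1 or 2 and 0.27 without wild-type tumour 3; 2 probes were higher and 1 lower at the unadjusted threshold, and 0 without wild-type tumour 1 or without knockout tumour 2. Ncoa3, a coactivator, read 1.54, 1.56 and 1.52 in labelled wild-type tumours 1, 2 and 3 and 1.89, 1.93 and 1.96 in labelled knockout tumours 1, 2 and 3, a difference of 0.39 (limma adjusted p = 0.332), while its brightest probe differed by 0.19. Hsp90aa1, the chaperone that holds AHR in the cytoplasm, differed by -0.51 (adjusted p = 0.340), and the corepressor Nrip1 by 0.30 (adjusted p = 0.487). With only the brightest probe of each gene, 0 of 10 in this list were past the unadjusted threshold. Of the partners and clients of Por, 9 of 15 were higher with a median of 0.06; the median was -0.02 without wild-type tumour 1, -0.07 without wild-type tumour 3 and 0.15 without wild-type tumour 2. Pgrmc1, a haem protein that binds P450s, differed by -0.45 (adjusted p = 0.301), Cyp51, a P450 of cholesterol synthesis, by -0.49 (adjusted p = 0.309), and Cyb5b, a cytochrome b5, by -0.38 (adjusted p = 0.491).

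The related factors of the same bHLH-PAS family had 6 of 14 tested probes higher and a median of -0.01. The median was 0.15 without wild-type tumour 1, with 9 of 14 higher, 0.04 without wild-type tumour 3, 0.11 without knockout tumour 2 and -0.14 without wild-type tumour 2, so the list had no steady direction. Sim2, a factor of embryonic development, differed by 1.51 (limma adjusted p = 0.293), at a probe that entered the test through the labelled knockout arrays alone, with wild-type tumour 3 below background, so that value rests in part on an unmeasured level. Its brighter probe, measured on all 6 arrays, differed by 0.40. Hif1a, the hypoxia factor that shares ARNT with AHR, differed by 0.73 at a dim probe (adjusted p = 0.340) and by 0.28 at its brightest, and Arntl, of the circadian clock, by -0.30 (adjusted p = 0.557). Of the enzymes that make AHR ligands from tryptophan, 3 probes were tested. Il4i1 differed by 1.11 (adjusted p = 0.360) with the genotypes overlapping, Kmo by 0.39 (adjusted p = 0.501) and Tph1, with knockout tumour 1 below background, by -0.03 (adjusted p = 0.987).

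**Figure D4:**
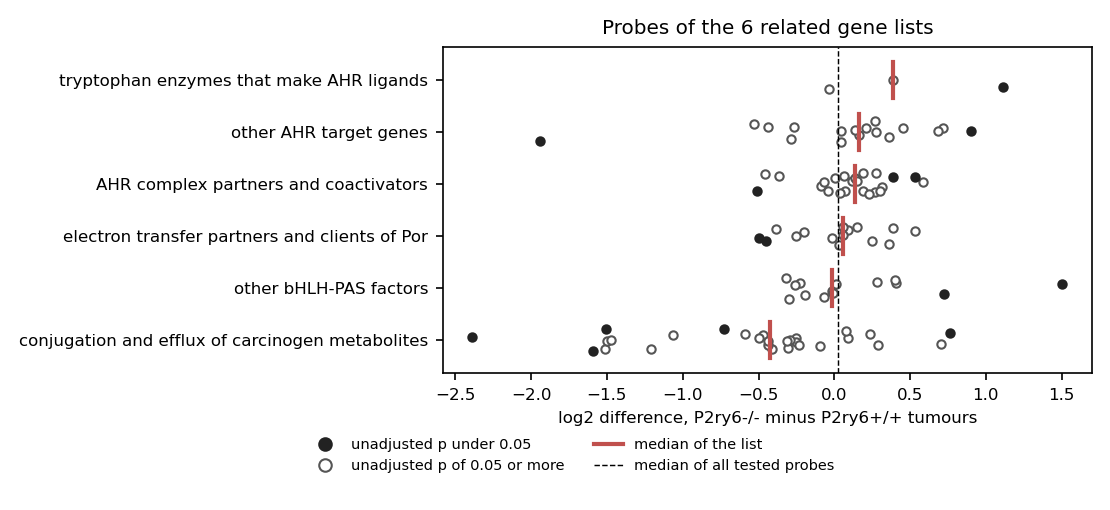
Each point is the log2 difference of 1 tested probe, labelled P2ry6-/- minus labelled P2ry6+/+ tumours, in 6 related gene lists; filled points have an unadjusted p under 0.05, red bars are list medians and the dashed line is the median of all tested probes (0.02). The conjugation and efflux list has the lowest median (-0.42) and the widest spread.

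The genes whose pattern over the 6 tumours lay nearest were looked for with 4 members, Ahr, Tiparp, Cyp1a1 and Cyp1b1, by the root mean square difference between values centred on their own means, among 27439 probes well above background on all arrays. For Ahr these were Ypel5 (0.051), B3glct (0.052) and Sgk3 (0.053), each lowest in knockout tumour 1 as Ahr was. For Tiparp they were the tetraspanin gene Tspan3 (0.047), Ddx58, which encodes the RNA sensor RIG-I (0.053), and the spectrin gene Sptan1 (0.063), each higher in all 3 labelled knockout tumours. Cyp1a1 and Cyp1b1 were not measured on all 6 arrays and have no such neighbours. These are descriptions of 6 arrays and carry no test.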

How the data were processed

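RNA (0.2 ug per sample, Cy3) was hybridised to one-colour Agilent arrays on 1 slide with 1 scan; their number limits the precision. The deposited files give spot intensity, background-subtracted, with mm9 probe coordinates, per the file headers; Feature Extraction 10.7.1.1 is named in the submitters' processing notes. The authors' deposited value table holds log2 signals (each column's median 4.969, r at least 0.9994 with the intensities, genes not centred, normalization tool not given in the sources used here). Outlier spots (68 to 184 per array) were left out, no spot was saturated, and the mean of each probe's spots was scaled to the array's 75th percentile. Genotypes were compared with limma 3.58.1 (lmFit, eBayes, R 4.3.3, the data.table package at 1.17.8), Benjamini-Hochberg over 29720 probes, threshold 0.05, after a test on simulated data. There the fit called 7 of 100 true log2 differences of 1 and 86 of 100 of 3, with 5 false calls. A probe that did not pass can therefore still differ 2-fold. List genes were matched to RefSeq (32994 probes by accession, 10224 by symbol, 520 by synonym). Named were all member probes, up to 3 genes with the smallest p per list, and the 3 nearest patterns. Members and lists were chosen with earlier results of these data known. Alternatives were normexp (offset 50), quantile and median scaling, other filters, a single value per gene, trend and robust variance, array weights, the value table, replicate and slide column blocks, and each array left out.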

Additional observations from a re-analysis of the deposited data

How the results depend on the processing

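No member probe passed the adjusted threshold in the main setting or in any of the 18 alternatives. Over the 8 probes tested in the main setting the lowest limma adjusted p was 0.169 (Cyp1b1 with array weights). With no filter on dim probes and all 6 tumours, the member probes left out of the main setting were tested too, at values mostly below background. Their limma adjusted p ran from 0.327 (Cyp1a1 and Cyp1a2) to 0.867 (the second Ahr probe). Without wild-type tumour 3 the Cyp1a1 probe was also tested, having passed the filter through wild-type tumours 1 and 2 alone. Its difference was -2.46 (limma adjusted p = 0.161), against knockout values that were all below background. Cyp1b1 stayed lower in 17 of 17 alternatives that tested it, from -1.90 to -0.55, with an unadjusted p under 0.05 in 12; Tiparp stayed higher in 18 of 18, from 0.33 to 0.48, in 13. Por stayed lower in 18 of 18. Near 0, signs turned. Leaving out 1 array gave -0.49 to 0.36 for Ephx1, -0.29 to 0.00 (0.0044) for Ahr, and -0.021 to 0.18 (0.175) for the Arnt probe from 95296147. Ephx1 differed by 0.01 with quantile normalization (0.0053) and with the value table (0.0070), 0.31 with the slide column as a block, and 0.36, 0.11 and 0.15 without wild-type replicates 1 and 3 and knockout replicate 2. Arnt differed by -0.02 at 1 probe with array weights (-0.021), at 2 probes without wild-type replicate 2 (-0.018 and -0.021), and by -0.01 at 2 probes without knockout replicate 1 (-0.015 at each). Within slide columns 1 and 2, Cyp1b1 differed by -1.87 and -1.12 and Tiparp by 0.28 and 0.65, with 1 array of a genotype in each. Over all probes 43 passed, 17 higher and 26 lower. The count was 15 with normexp, 22 with no filter, 6 with probes above background on all 6 arrays and 147 with array weights. Leaving out 1 array gave 16 to 187: 187 and 77 without wild-type replicates 2 and 3, and 23, 21 and 16 without knockout replicates 1, 2 and 3. With the replicate number as a block 6 passed, Cyp1b1 had limma adjusted p = 0.302 and Tiparp adjusted p = 0.352. Same-numbered tumours deviated together at r = 0.096, 0.245 and 0.143, and each sample correlated best with its own number. Pairs with different numbers gave r from -0.18 to 0.07. The labels do not say what equal numbers share, so these values cannot decide whether the tumours were paired. The list medians under these alternatives were computed after the data were seen. The conjugation median stayed below 0 and the AHR target median above 0 in 18 of 18. The AHR complex and tryptophan medians also stayed above 0 in 18 of 18. With no filter on dim probes the AHR target and AHR complex medians (0.16 and 0.17) lay below that of all tested probes (0.18). Dim signal limits Ahrr, Cyp1a1 and Cyp1a2.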
